A study of Mus musculus with 9 samples.

Results

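The genes described here are the p53 gene, targets of p53 and inhibitors or partners of cyclin-dependent kinases (CDKs), measured by RNA-Seq in Hepa1-6 cells, a mouse hepatoma cell line. The 10 genes are Trp53, Cdkn1a, Cdkn1b, Mdm2, Ccng1, Trp53inp1, Bbc3, Bax, Btg2 and Ccnd1, chosen by name and as protein-coding genes from the 56748 genes of the deposited count table. The genes were picked by name and not by a cutoff on a measured value, although earlier results of these data were known. All 10 passed the filter on low counts, with between 241 (Bbc3, control 2) and 13470 (Ccnd1, control 3) reads per library.

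Hepa1-6 cells were exposed to 37 µg/mL lefamulin or 37 µg/mL tiamulin for 2 days, and each of the 3 groups (control, lefamulin, tiamulin) gave 3 libraries. The controls are untreated according to the labels and received vehicle according to the methods of the study. All groups came from 1 cell line, and the sources do not say whether the libraries of a group came from separate cultures, so the p-values below measure only the spread between these libraries, which may be technical. Both drugs are pleuromutilins, antibiotics that share a tricyclic core and differ in the side chain, and they were matched by mass per volume.

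The total of reads on genes lay between 15568887 and 18008105 per library. Tiamulin 2 stood apart from the other libraries of its group. A chi-square test of counts gave 18.1 and 20.6 per degree of freedom for its pairs with tiamulin 1 and tiamulin 3, against 2.88 to 7.57 for the other pairs within groups. Its deviation from the mean of the 9 libraries rose with the GC content of the genes (Spearman rho 0.69 across 10481 genes), whereas rho was -0.53 in tiamulin 1 and -0.57 in tiamulin 3. Control 1 and control 2 differed in the same way, with rho of 0.49 and -0.48. Results for the 10 genes are therefore given also without tiamulin 2 and with offsets that remove trends in GC content and length where a call changed. The hepatocyte genes Alb, Afp, Hnf4a, Trf and Fgb were abundant in every library, whereas Ttr had at most 2, Apoa1 at most 6 and Apoa2 8 to 40 reads. The summed level of 8 hepatocyte markers was 2391 to 2597 CPM (reads scaled to the same library size) in control, 2343 to 2484 in lefamulin and 1864 to 2000.5 in tiamulin. Afp gave 15977 to 18318 reads per control library, 13998 to 14596 under lefamulin and 8884 to 9250 under tiamulin. Trf gave 8985 to 10207, 10595 to 10975 and 9291 to 9924 reads. For 5 blood cell markers the sums were 11.5 to 11.6, 12.7 to 19.1 and 16.9 to 21.9 CPM, with Cd3e at 0 in all 9 libraries. Most of these reads were of Cd68, with 138 to 153 per control library, 164 to 260 under lefamulin and 234 to 316 under tiamulin, while Csf1r was lower with the drugs, at 40 to 58, 16 to 18 and 12 to 26 reads. For 5 endothelial markers they were 2.31 to 2.83, 6.49 to 7.28 and 4.85 to 6.77 CPM, with Cdh5 and Tek at no more than 3 reads in any library. Most of these reads were of Pecam1, with 15 to 25 per control library, 39 to 56 under lefamulin and 37 to 67 under tiamulin, and of Vwf, with 15 to 26, 38 to 76 and 28 to 37. For 5 fibroblast markers they were 1475 to 1556, 1136 to 1188 and 1028 to 1116 CPM, nearly all of it Dcn, with Col1a2, Col3a1 and Pdgfrb at no more than 3 reads in any library. The part of these sums in the results below was not tested.

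The protein p53 is a transcription factor that is kept scarce by the ubiquitin ligase Mdm2 and accumulates when DNA is damaged or other stresses act on the cell. It binds pairs of decamer elements in its target genes, among them the CDK inhibitor p21, the pro-apoptotic genes Bbc3 and Bax and its own inhibitor Mdm2, which closes a feedback loop. Because p53 is controlled largely at the protein level, the mRNA of its targets is often read as a record of its activity, although most of the targets also respond to other factors.

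The promoters are shown because several of the genes are direct p53 targets and the p53 element is visible in some of them. RefSeq promoter sequences (build GRCm38.p6, 250 bases before to 50 bases after a transcription start) were matched by symbol for 8 of the 10 genes, in 11 entries. No entry matched the symbols Trp53inp1 and Ccnd1 in the set of promoters used here. The p53 decamer consensus, a palindrome that reads alike on both strands, was found in the promoters of 5 genes (Trp53, Cdkn1a, Mdm2, Ccng1 and Bax) and in 8.36% of all 32851 promoters of this length. A pair of decamers separated by no more than 13 bases, as in a complete p53 element, was found in 24 promoters (0.0731%), including that of the upstream start of Cdkn1a. There the first bases of the decamers lay 73 and 51 bases before the start, with 12 bases between the elements. Directly after GAACATGTCT the sequence runs tgacatgttc, which misses the consensus only at its first base and was not counted. The marked pair is therefore a pair of exact matches and need not be the element that p53 uses. The downstream start of Cdkn1a, 2790 bases away, and the promoters of Cdkn1b, Bbc3 (3 starts) and Btg2 held no match. The Mdm2 entry held 1 decamer, 186 bases before the start. It precedes the upstream start, while the p53-responsive promoter known for Mdm2 is an internal one. A match is a string of letters and no measure of binding. The sequences read 5′ to 3′ on the strand of the gene, and capitals mark the p53 decamers.
Cdkn1a, upstream start, chr17:29090729-29091028, + strand, GRCm38.p6: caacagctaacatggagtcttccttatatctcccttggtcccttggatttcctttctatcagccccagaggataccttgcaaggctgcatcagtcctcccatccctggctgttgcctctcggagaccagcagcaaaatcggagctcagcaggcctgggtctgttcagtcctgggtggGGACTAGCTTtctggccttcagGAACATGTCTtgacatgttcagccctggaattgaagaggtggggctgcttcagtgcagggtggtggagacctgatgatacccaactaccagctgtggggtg
Cdkn1a, downstream start, chr17:29093519-29093818, + strand, GRCm38.p6: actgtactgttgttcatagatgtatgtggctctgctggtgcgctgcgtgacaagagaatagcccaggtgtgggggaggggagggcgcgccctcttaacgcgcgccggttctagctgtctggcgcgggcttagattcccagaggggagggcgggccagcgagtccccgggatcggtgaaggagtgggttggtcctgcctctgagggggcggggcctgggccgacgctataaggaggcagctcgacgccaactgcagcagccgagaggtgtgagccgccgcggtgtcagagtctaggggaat
Mdm2, chr10:117710709-117711008, - strand, GRCm38.p6: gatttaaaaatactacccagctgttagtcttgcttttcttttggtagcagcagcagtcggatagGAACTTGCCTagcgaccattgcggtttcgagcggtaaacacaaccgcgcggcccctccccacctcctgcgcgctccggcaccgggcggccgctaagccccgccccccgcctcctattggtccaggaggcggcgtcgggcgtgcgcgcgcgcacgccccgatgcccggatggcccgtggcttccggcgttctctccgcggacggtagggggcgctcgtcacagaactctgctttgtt

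Levels of different genes were compared per length, as the authors' FPKM (reads scaled to gene length and library total). In control cells the highest level was that of Ccnd1 (155 ± 6.04 FPKM, mean ± SD, n = 3), followed by Ccng1 (138 ± 3.78), Mdm2 (85.2 ± 3.22), Trp53 (77.5 ± 4.07), Trp53inp1 (63.2 ± 3.31), Cdkn1a (54.0 ± 1.73), Bax (48.6 ± 2.72), Cdkn1b (28.0 ± 1.63), Btg2 (18.4 ± 1.22) and Bbc3 (7.62 ± 1.18). Only Mdm2 and Trp53 were neighbours whose control libraries overlapped. Under lefamulin, Ccng1 (148 ± 3.58 FPKM) stood above Ccnd1 (132 ± 2.66), and Trp53inp1 (82.9 ± 4.84) stood above Trp53 (65.3 ± 0.432), in both cases without overlap of the libraries. Under tiamulin the libraries of Ccnd1 (132 ± 0.978 FPKM) and Ccng1 (128 ± 14.5), of Ccng1 and Mdm2 (111 ± 5.28), and of Trp53inp1 (89.0 ± 13.4) and Trp53 (72.3 ± 7.61) overlapped, and Bbc3 remained the lowest at 11.9 ± 3.22 FPKM. Changes between groups are given below on TMM-normalized CPM, a scale that corrects for the size and composition of each library but not for gene length.

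**Figure D1:**
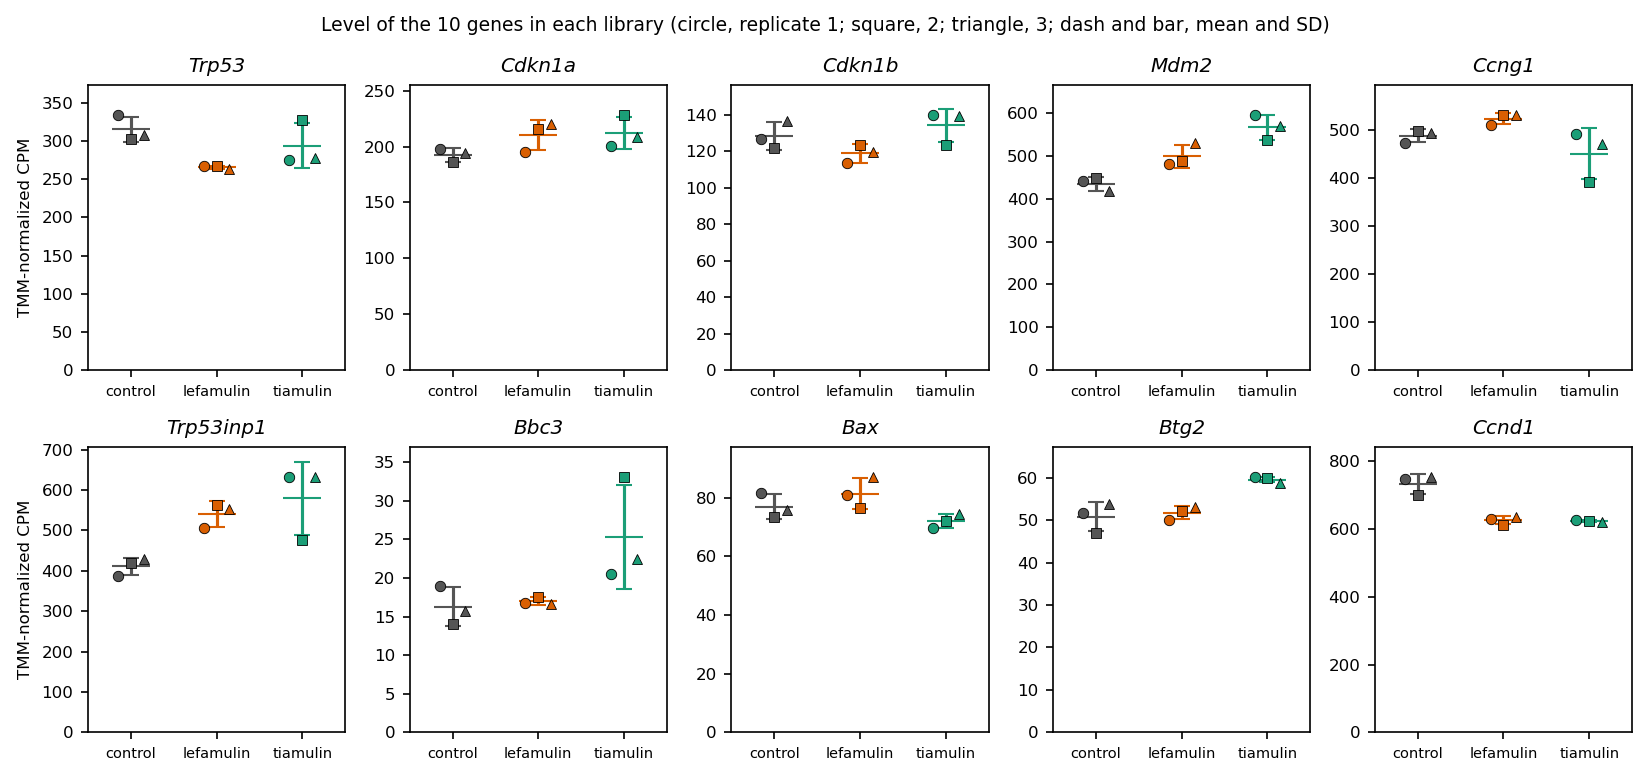
TMM-normalized CPM (vertical axes, each starting at 0) of the 10 genes in the 9 libraries, by group, with the mean and SD of 3 libraries. Both drug groups lie below control for Ccnd1 and above it for Mdm2 and Trp53inp1, and tiamulin 2 (square) is the lowest tiamulin library for Trp53inp1 (476 CPM) and the highest for Bbc3 (33.1 CPM).

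Lefamulin changed 4 of the 10 genes at an adjusted p below 0.05 by edgeR's quasi-likelihood test, against 13.1% of the 14510 genes tested. Mdm2 and Trp53inp1 rose, against a background of 7.09% of genes called higher, and Trp53 and Ccnd1 fell, against 6.00% called lower. The median log2 fold change of the 10 genes was 0.07, against -0.00 for all tested genes. Without tiamulin 2 the count was 6 (background 24.9%), with Cdkn1a and Ccng1 added, and with the GC and length offsets it was also 6 (background 23.6%), with Cdkn1a and Cdkn1b added. Tiamulin changed 5 of the 10 genes, against 16.4% of all genes. Mdm2, Trp53inp1, Bbc3 and Btg2 rose (background 9.08% higher) and Ccnd1 fell (background 7.34% lower), with a median log2 fold change of 0.10 for the 10 genes and 0.00 for all genes. Without tiamulin 2 (background 23.1%) and with the offsets (background 26.8%) Trp53 was added to these 5. The controls are shared by both comparisons, so they do not count as separate evidence. None of the 10 genes reached the threshold for a differentially expressed gene (DEG), an adjusted p below 0.05 with an absolute log2 fold change above 1, which 1.51% of genes passed under lefamulin and 1.78% under tiamulin. The largest absolute log2 fold change among the 10 was 0.39 under lefamulin (Trp53inp1) and 0.64 under tiamulin (Bbc3). Mdm2 and Trp53inp1 under tiamulin, and Ccnd1 under each drug, passed in the main test and in all 16 alternatives run for each gene and comparison. The RNA is from bulk cells, in which a lower level in each cell and fewer cells with the transcript cannot be told apart.

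Groups that did not overlap were counted as well. The 3 lefamulin libraries lay apart from the 3 controls for 5 of the 10 genes (Trp53 and Ccnd1 below, Mdm2, Ccng1 and Trp53inp1 above), against 37.6% of all tested genes. The 3 tiamulin libraries did so for 6 (Ccnd1 below, Cdkn1a, Mdm2, Trp53inp1, Bbc3 and Btg2 above), against 32.3%.

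**Figure D2:**
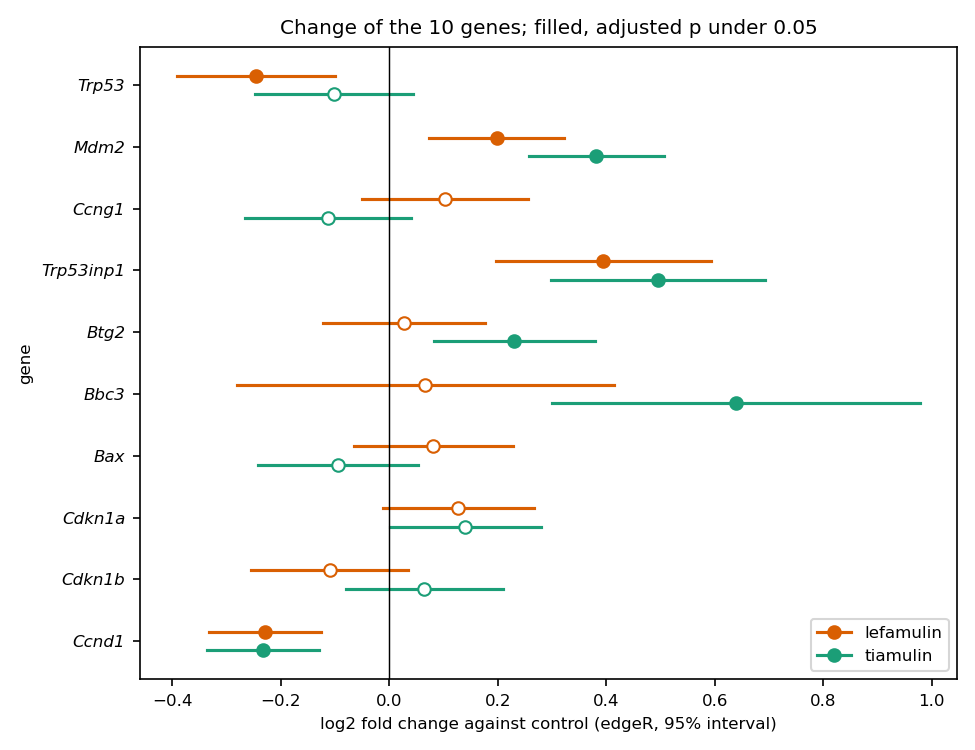
Log2 fold change against control (horizontal axis, edgeR, with 95% intervals) of the 10 genes under lefamulin (orange) and tiamulin (green). Filled points passed an adjusted p of 0.05, which 4 genes did under lefamulin and 5 under tiamulin, and the points lie between -0.25 (Trp53, lefamulin) and 0.64 (Bbc3, tiamulin).

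Trp53, which encodes p53 itself, lies on chromosome 11 from 69471185 to 69482699 on the + strand in the deposited annotation. Its level was 334, 303 and 308 CPM in controls 1 to 3, 267, 267 and 264 CPM in the lefamulin libraries and 275, 328 and 278 CPM in the tiamulin libraries. The lefamulin libraries were all below the controls, and tiamulin 2 fell within the range of the controls while tiamulin 1 and 3 were below it. Trp53 fell by 15.7% under lefamulin (log2 fold change -0.25, SE 0.07, edgeR adjusted p = 0.0288). This call was lost when control 1 (log2 fold change -0.20, edgeR adjusted p = 0.132), control 3 (-0.26, 0.0746), lefamulin 1 (-0.25, 0.0958), lefamulin 2 (-0.25, 0.0957) or lefamulin 3 (-0.24, 0.103) was left out, and it held without tiamulin 2 (-0.25, 4.13e-05). Its log2 fold change with tiamulin was -0.10 (SE 0.07, edgeR adjusted p = 0.347), and -0.19 (0.00286) without tiamulin 2 and -0.14 (0.00903) with the offsets. An antisense long non-coding RNA overlaps Trp53 over 324 bases and had 29 to 87 reads per library. Whether the counting used strand is not given in the sources used here, so reads of the overlap cannot be assigned.

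Mdm2, the ubiquitin ligase that marks p53 for degradation and is itself a p53 target, lies on chromosome 10 from 117524780 to 117546663 on the - strand. It was at 441, 448 and 417 CPM in control, 480.1, 488 and 530.3 CPM under lefamulin and 595, 536 and 569 CPM under tiamulin. Each lefamulin library exceeded each control, and each tiamulin library exceeded each lefamulin library. Mdm2 rose by 14.7% under lefamulin (log2 fold change 0.20, SE 0.06, edgeR adjusted p = 0.0386) and by 30.2% under tiamulin (0.38, SE 0.06, adjusted p = 4.53e-04). The lefamulin call was lost in each fit that left out a control or a lefamulin library, with log2 fold changes of 0.21, 0.22 and 0.17 without controls 1, 2 and 3 (edgeR adjusted p = 0.0938, 0.0605 and 0.180) and of 0.23, 0.21 and 0.15 without lefamulin 1, 2 and 3 (0.0589, 0.0889 and 0.179).

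Cdkn1a encodes p21, the CDK inhibitor through which p53 halts the cycle in G1, and lies on chromosome 17 from 29309950 to 29319701 on the + strand. It was at 198, 186 and 194 CPM in control, 195, 216 and 220.4 CPM under lefamulin and 200.4, 228 and 209 CPM under tiamulin. Lefamulin 1 lay within the control range, and the 3 tiamulin libraries lay above it, tiamulin 1 by the least. The log2 fold change was 0.13 under lefamulin (95% interval -0.01 to 0.27, edgeR adjusted p = 0.229) and 0.14 under tiamulin (95% interval 0.00 to 0.28, edgeR adjusted p = 0.166), so that Cdkn1a passed the test under neither drug. The lefamulin value passed without tiamulin 2 (0.13, edgeR adjusted p = 0.0456) and with the offsets (0.13, 0.0408). The tiamulin value did not (0.08, 0.259, and 0.11, 0.0815). A sequence annotated on the opposite strand, 1700023B13Rik, overlaps Cdkn1a over 1046 bases and had 3 to 22 reads per library.

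Cdkn1b encodes p27, a CDK inhibitor that is controlled mainly by its degradation and is not a classical p53 target, and lies on chromosome 6 from 134897364 to 134902476 on the + strand. Its libraries were at 127, 122 and 136 CPM in control, 113, 124 and 119.6 CPM under lefamulin and 139.8, 124 and 139 CPM under tiamulin. Both drug groups overlapped the controls. Its log2 fold change came to -0.11 under lefamulin (SE 0.07, edgeR adjusted p = 0.322) and 0.06 under tiamulin (SE 0.07, edgeR adjusted p = 0.573), which became 0.12 without tiamulin 2 (0.126). The lefamulin value was -0.14 with the offsets and then passed (edgeR adjusted p = 0.0351).

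Ccnd1 encodes cyclin D1, the partner of CDK4 and CDK6 in early G1, and lies on chromosome 7 from 144483668 to 144493662 on the - strand. It was at 749, 700.2 and 752 CPM in control, 629, 612 and 637 CPM under lefamulin and 627, 625 and 621 CPM under tiamulin. All 6 drug libraries were below all 3 controls, and the groups of the drugs overlapped each other. Ccnd1 fell by 14.7% under lefamulin (log2 fold change -0.23, SE 0.05, edgeR adjusted p = 0.00626) and fell by 14.9% under tiamulin (-0.23, SE 0.05, adjusted p = 0.00421). The neighbouring gene LTO1 on the opposite strand overlaps Ccnd1 over 1771 bases and had 356 to 407 reads per library, against 9838 to 13470 for Ccnd1.

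Trp53inp1, a p53 target whose protein acts in the stress response, in apoptosis and in autophagy, lies on chromosome 4 from 11156431 to 11174379 on the + strand. It was at 386, 419 and 428 CPM in control, 505, 562 and 554 CPM under lefamulin and 631, 476 and 631 CPM under tiamulin. All 6 drug libraries were above the controls, and tiamulin 2 was the lowest of them. Trp53inp1 rose by 31.4% under lefamulin (log2 fold change 0.39, SE 0.09, edgeR adjusted p = 0.0119) and by 40.9% under tiamulin (0.50, SE 0.09, adjusted p = 0.00216). Without tiamulin 2 the tiamulin value was 0.62. The lefamulin call was lost without control 1 (0.35, edgeR adjusted p = 0.0573), lefamulin 2 (0.36, 0.0604) or lefamulin 3 (0.38, 0.0550).

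Ccng1 encodes cyclin G1, a p53 target that recruits a phosphatase to Mdm2, and lies on chromosome 11 from 40639379 to 40646138 on the - strand. It was at 473, 498 and 493 CPM in control, 509.6, 531 and 531 CPM under lefamulin and 492, 391 and 470.5 CPM under tiamulin. The lefamulin libraries lay above the controls and the tiamulin libraries reached from the control range down to tiamulin 2. Its log2 fold change came to 0.10 under lefamulin (SE 0.07, edgeR adjusted p = 0.393, and 0.0431 without tiamulin 2) and -0.11 under tiamulin (SE 0.07, edgeR adjusted p = 0.315), which became -0.02 without tiamulin 2.

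Btg2, an antiproliferative p53 target that acts in mRNA deadenylation, lies on chromosome 1 from 134002908 to 134006858 on the - strand. Its level was 51.6, 47.0 and 53.7 CPM in control, 49.97, 52.2 and 53.01 CPM under lefamulin and 60.1, 59.9 and 58.7 CPM under tiamulin. Tiamulin libraries were above all others, and lefamulin libraries lay within the control range. Btg2 rose by 17.3% under tiamulin (log2 fold change 0.23, SE 0.07, edgeR adjusted p = 0.0353). That call was lost without control 1 (0.24, edgeR adjusted p = 0.0765), control 2 (0.18, 0.154), lefamulin 2 (0.23, 0.0583), lefamulin 3 (0.23, 0.0543), tiamulin 1 (0.22, 0.0875) or tiamulin 3 (0.24, 0.0590). It was also lost without a filter on low counts (0.24, 0.0573) and in the fit of just the tiamulin and control libraries (0.23, 0.0833). With lefamulin its log2 fold change was 0.03 (SE 0.07, edgeR adjusted p = 0.850).

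Bbc3 encodes PUMA, a BH3-only protein that triggers apoptosis at mitochondria and is induced by p53, and lies on chromosome 7 from 16042318 to 16052130 on the + strand. It was at 19.0, 14.0 and 15.8 CPM in control, 16.8, 17.6 and 16.7 CPM under lefamulin and 20.6, 33.1 and 22.4 CPM under tiamulin. All 3 tiamulin libraries were above all others, with tiamulin 2 far above the remaining pair. Bbc3 rose by 55.8% under tiamulin (log2 fold change 0.64, SE 0.16, edgeR adjusted p = 0.0127). The value was 0.40 without tiamulin 2 (edgeR adjusted p = 0.0103) and 0.60 with the offsets (2.65e-05), and the call was lost without control 2 (0.55, 0.0651) or control 3 (0.62, 0.0578). With lefamulin its log2 fold change was 0.07 (SE 0.16, edgeR adjusted p = 0.838).

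Bax encodes the effector that permeabilizes the outer mitochondrial membrane in apoptosis and lies on chromosome 7 from 45111121 to 45116322 on the - strand. It was at 81.7, 73.3 and 75.8 CPM in control, 80.9, 76.4 and 86.9 CPM under lefamulin and 69.6, 72.0 and 74.4 CPM under tiamulin. Each drug group overlapped the controls. Its log2 fold change came to 0.08 under lefamulin (SE 0.07, edgeR adjusted p = 0.491) and -0.10 under tiamulin (SE 0.07, edgeR adjusted p = 0.391). The annotated gene Gm45808 overlaps Bax over 915 bases on the same strand and had 0 reads.

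The direct comparison asked where the 2 compounds, which share the core and differ in the side chain, differed at the same mass per volume. None of the 10 genes passed an adjusted p of 0.05 by edgeR, against 4.90% of all tested genes, although 6 had an unadjusted p below 0.05, against 21.6% of all tested genes, and DESeq2 called 2 (Mdm2 and Bbc3, both higher under tiamulin), against 9.44% of the 11393 genes to which it gave an adjusted p. In the whole table, 2.85% of genes were higher and 2.05% lower under tiamulin than under lefamulin by edgeR. Bbc3 had the largest value, 0.57 on the log2 scale for tiamulin minus lefamulin (95% interval 0.23 to 0.91, edgeR adjusted p = 0.0526), which was 0.34 without tiamulin 2 (edgeR adjusted p = 0.0660) and passed without tiamulin 1 (0.70, 0.0313) or tiamulin 3 (0.66, 0.0383), the fits in which tiamulin 2 weighs more. For Mdm2 it was 0.18 (95% interval 0.06 to 0.31, edgeR adjusted p = 0.0841), and 0.22 without tiamulin 2, where it passed (edgeR adjusted p = 0.00179). For Cdkn1b it was 0.17 (95% interval 0.03 to 0.32, edgeR adjusted p = 0.152), and 0.23 without tiamulin 2 (0.00793). The p21 gene Cdkn1a differed by 0.01 (95% interval -0.13 to 0.15) and Ccnd1 by -0.00 (95% interval -0.11 to 0.10). The other values were 0.14 for Trp53, 0.10 for Trp53inp1, 0.20 for Btg2, -0.18 for Bax and -0.22 for Ccng1. Without tiamulin 2 they were 0.06 for Trp53, 0.22 for Trp53inp1 (edgeR adjusted p = 0.00271) and -0.12 for Ccng1, and stayed at 0.20 for Btg2 and -0.18 for Bax. The tiamulin and lefamulin libraries lay apart for 7 of the 10 genes (Trp53, Cdkn1b, Mdm2, Bbc3 and Btg2 higher under tiamulin, Ccng1 and Bax lower), against 26.5% of all genes. With the GC and length offsets 7 genes were called, against 13.1% of all genes, with Cdkn1b, Mdm2, Trp53inp1, Bbc3 and Btg2 higher and Ccng1 and Bax lower under tiamulin, and without tiamulin 2 the count was 3 (Cdkn1b, Mdm2 and Trp53inp1), against 8.79%. The offsets remove any trend with GC content, including one that a drug may cause.

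The library tiamulin 2 deviated from tiamulin 1 and 3 along the GC content of the 10 genes. It was lowest, relative to the mean of the other pair, for Trp53inp1 (-0.41 on the log2 scale, 38.8% GC in the longest transcript), Ccng1 (-0.30, 40.8%), Cdkn1b (-0.17, 43.1%) and Mdm2 (-0.12, 46.2%). It was level with them for Btg2 (0.01, 49.7%) and Ccnd1 (0.00, 50.9%), and higher for Trp53 (0.24, 53.3%), Cdkn1a (0.16, 54.4%) and Bbc3 (0.62, 65.2%). Bax, with 63.5% GC, was at 0.00 and departed from this order. The median GC content of the tested genes was 49.2%.

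**Figure D3:**
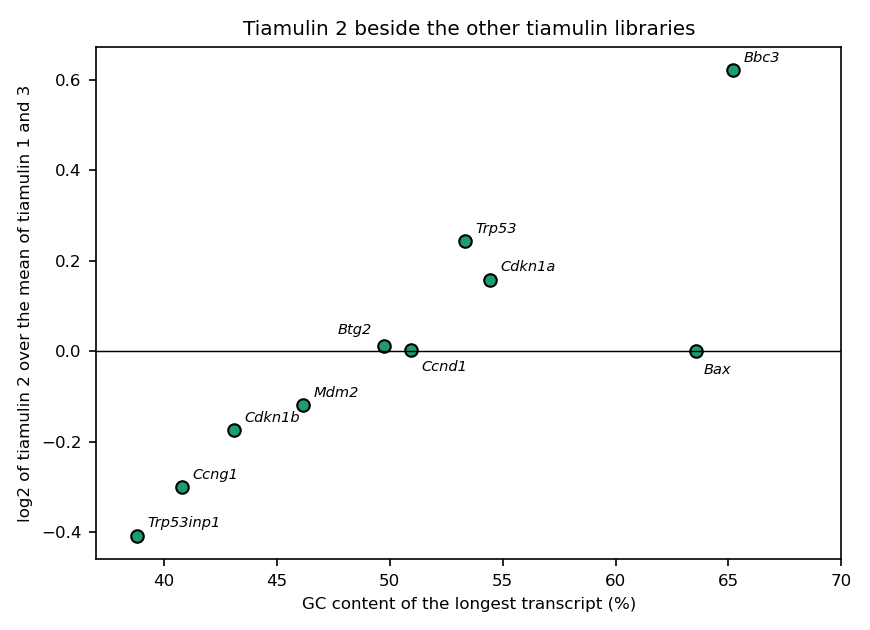
Log2 ratio of tiamulin 2 to the mean of tiamulin 1 and 3 (vertical axis) against the GC content of the longest transcript in percent (horizontal axis), with 1 point for each of the 10 genes. The points run from -0.41 for Trp53inp1 to 0.62 for Bbc3, and Bax (63.5% GC) lies at 0.00.

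Other genes of the pathway were read from fixed lists, each described by its counts. When a library other than tiamulin 2 was left out, the share of all genes called, against which the counts without that library are to be read, was 6.69% to 13.1% under lefamulin, 9.85% to 14.4% under tiamulin and 1.37% to 6.00% between the drugs. Of 31 other p53 target genes, all tested, 9 rose and none fell under lefamulin, and 10 rose and 1 fell under tiamulin, against 13.1% and 16.4% of all tested genes called in either direction, with medians of 0.14 and 0.15. Without tiamulin 2 the counts called were 13 (background 24.9%) and 15 (background 23.1%). Gadd45a, a growth-arrest gene induced by DNA damage, was at 11.6, 12.5 and 11.6 CPM in control, 23.3, 24.3 and 20.3 CPM under lefamulin and 31.3, 27.1 and 32.7 CPM under tiamulin. It was the single gene of the 6 lists to pass as a DEG, under tiamulin (log2 fold change 1.35, SE 0.10), and rose by 0.93 (SE 0.11) under lefamulin, with a difference of 0.42 between the drugs (edgeR adjusted p = 0.0279). The stress cytokine Gdf15 rose by 0.95 (SE 0.10) and 0.78 (SE 0.10), the polo-like kinase Plk3 by 0.71 and 0.67 (SE 0.12 each), the stress-inducible Sesn2 by 0.62 and 0.55 (SE 0.10 each) and the kinase Plk2 by 0.47 and 0.78 (SE 0.06 each) under lefamulin and tiamulin. Many of these respond to other stress pathways as well as to p53. Rrm2b (0.48 and 0.48) and Perp (0.30 and 0.33) rose under both drugs, Tigar (0.42) and Pmaip1 (0.36) passed under lefamulin, and Fdxr (0.50), Sesn1 (0.50) and Rap2b (0.35) passed under tiamulin. The death receptor gene Fas fell under tiamulin (-0.61, SE 0.15, edgeR adjusted p = 0.0143). Between the drugs 2 of the 31 differed, Gadd45a and Plk2, both higher under tiamulin, a share near the 4.90% of all tested genes. That count was 4 without tiamulin 2 (background 8.79%), 5 with the offsets (background 13.1%) and 0 when lefamulin 1, 2 or 3 was left out.

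**Figure D4:**
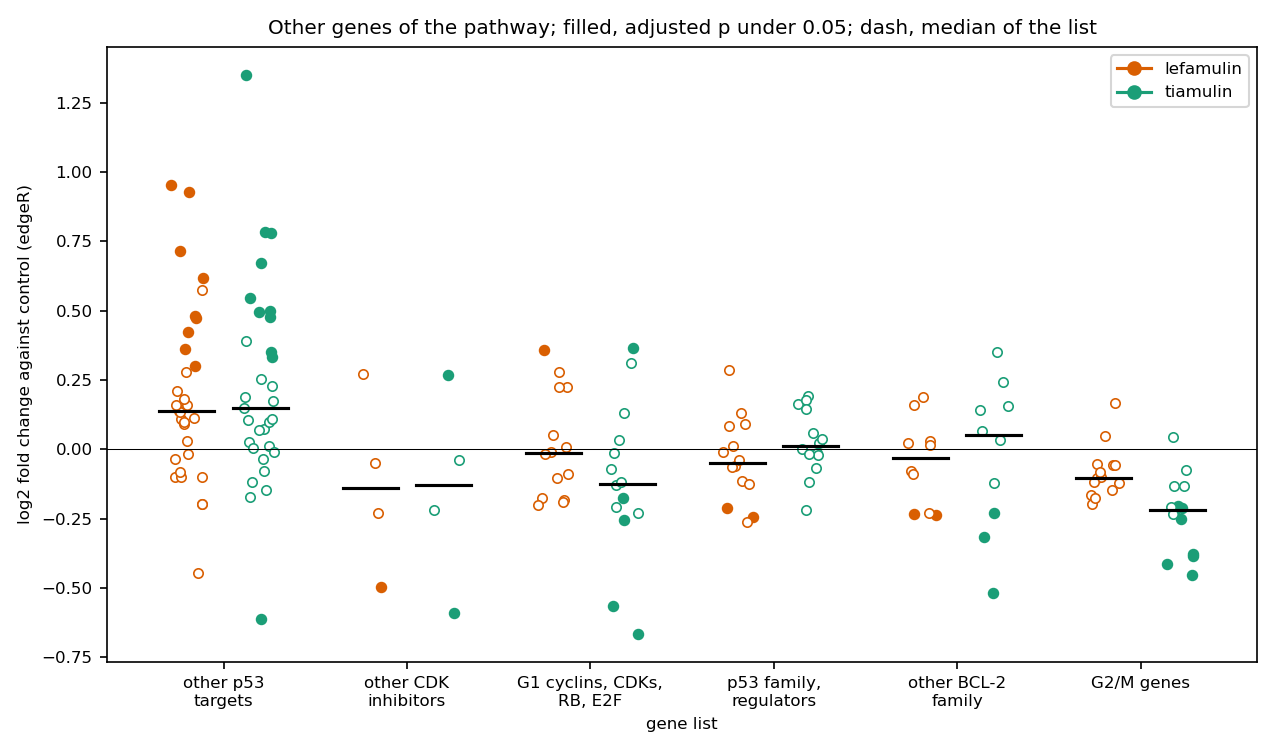
Log2 fold change against control (vertical axis, edgeR) of the tested genes of 6 lists (horizontal axis) under lefamulin (orange) and tiamulin (green), with the median of each list as a dash. Filled points passed an adjusted p of 0.05. The highest point is Gadd45a under tiamulin at 1.35, and the 8 filled points of the G2/M list are tiamulin values below 0.

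Of 5 other CDK inhibitors 4 were tested, since Cdkn1c had 0 reads in all libraries, and 1 passed under lefamulin (background 13.1%) and 2 under tiamulin (background 16.4%). Cdkn2c, which encodes the CDK4 and CDK6 inhibitor p18, fell under lefamulin (-0.50, SE 0.11, edgeR adjusted p = 0.00653) and tiamulin (-0.59, SE 0.11, adjusted p = 0.00147). Cdkn2b, which encodes p15, rose under tiamulin (0.27, SE 0.08, edgeR adjusted p = 0.0364), had a value of -0.23 under lefamulin (edgeR adjusted p = 0.0839), and differed between the drugs by 0.50 (edgeR adjusted p = 0.00403). The tiamulin count of this list, 2, was 1 when control 2, control 3 or any of the 3 lefamulin libraries was left out (backgrounds 9.85% to 13.9%), and the lefamulin count, 1, was 2 without control 2 (background 9.60%) or tiamulin 2 (background 24.9%).

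Of 15 G1 cyclins, CDKs, RB family genes and E2F factors 14 were tested, with Ccnd2 at 0 reads. Under tiamulin 4 fell (background 7.34% lower) and 1 rose (background 9.08% higher). The cyclin E genes had the largest changes, Ccne1 at -0.57 (SE 0.09) and Ccne2 at -0.67 (SE 0.09), followed by E2f3 at -0.26 and Cdk4 at -0.18, and Rb1 rose by 0.36. Under lefamulin only E2f5 passed (0.36, edgeR adjusted p = 0.0447), 1 of 14 against 13.1% of all genes. That call was lost without any of 6 libraries (control 1, control 3, lefamulin 1, 2 or 3, or tiamulin 1), and the count was 5 without tiamulin 2 (background 24.9%) and 4 with the offsets (background 23.6%). The difference between the drugs passed for Ccne1 (-0.62, edgeR adjusted p = 0.00130), Ccne2 (-0.89, 1.46e-04) and E2f3 (-0.24, 0.0441), all lower under tiamulin (background 4.90%). That count of 3 was 5 without tiamulin 2 (background 8.79%), and 2 when any of the other 8 libraries was left out. Ccne2 was at 43.5, 48.5 and 48.5 CPM in control, 49.1, 54.3 and 60.7 CPM under lefamulin and 30.6, 26.9 and 31.1 CPM under tiamulin, so that all 3 groups lay apart. The tiamulin count was 8 without tiamulin 2 (background 23.1%), 9 with the offsets (background 26.8%) and 3 without control 1, control 3, lefamulin 1 or tiamulin 1.

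Of 14 genes of the G2 phase and mitosis, which p53 lowers by way of p21 and which also follow the rate of division, 8 fell under tiamulin and none rose, against 7.34% of all tested genes called lower. Birc5 fell by 0.45, Mki67 by 0.41, Ccna2 by 0.39, Top2a by 0.38, Ccnb1 by 0.25, Cdk1 by 0.23, Bub1 by 0.21 and Cdc20 by 0.20 on the log2 scale. Under lefamulin 0 passed by edgeR and by DESeq2, and the median was -0.10 against -0.22 under tiamulin. With lefamulin 5 of 14 had an unadjusted p below 0.05 in edgeR, against 27.2% of all genes. Of these Aurka was higher (0.17) and Ccnb2, Mki67, Top2a and Bub1 were lower. With the offsets 6 passed under lefamulin (background 23.6%), and without tiamulin 2 there were 5 (background 24.9%), against 13.1% of all genes in the fit of the 9 libraries. The difference between the drugs passed for 5 of the 14, Birc5, Ccna2, Ccnb1, Mki67 and Top2a, all lower under tiamulin (background 4.90%). The count was 1 to 3 when control 3, a lefamulin library or tiamulin 1 was left out (backgrounds 1.37% to 3.24%).

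Of 16 genes of the p53 family and its regulators 14 were tested, with Trp73 at 0 reads and Trp63 at no more than 4 in any library. Under lefamulin the acetyltransferase gene Crebbp (-0.21, edgeR adjusted p = 0.0370) and Trp53bp1 (-0.24, 0.0423) fell, 2 of 14 and so a share near the 13.1% of all genes. These calls were lost when any control or lefamulin library was left out, with 1 of them lost without tiamulin 1. Under tiamulin 0 passed by edgeR (background 16.4%) or by DESeq2 (background 17.5%), and 0 had an unadjusted p below 0.05 in edgeR, against 29.8% of all genes, while 1 passed without tiamulin 2 or tiamulin 3. Crebbp was higher under tiamulin than under lefamulin (0.25, edgeR adjusted p = 0.0338), a call lost without control 2, control 3, tiamulin 1 or any lefamulin library. Of 12 other BCL-2 family genes 10 were tested, with Bik and Hrk at no more than 2 reads in any library. The anti-apoptotic Mcl1 fell by 0.23 under each drug and the BH3-only gene Bcl2l11 by 0.24 under lefamulin and 0.32 under tiamulin, and Bok fell by 0.52 under tiamulin alone by the test against control (edgeR adjusted p = 0.0475). These are 2 of 10 under lefamulin (background 13.1%) and 3 of 10 under tiamulin (background 16.4%). The lefamulin count of 2 fell to 0 without control 1 or lefamulin 2 and to 1 without control 2, control 3, lefamulin 1 or lefamulin 3. The tiamulin count of 3 fell to 1 without control 1 or control 3. Between the drugs Bok was lower (-0.71, edgeR adjusted p = 0.0272) and Bmf higher (0.47, 0.0325) under tiamulin, 2 of 10 with a background of 4.90%. No call remained in this list when a lefamulin library was left out (backgrounds 1.37% to 1.62%).

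The genes whose levels followed those of Cdkn1a, Mdm2 and Ccnd1 most closely over the 9 libraries were named by Pearson's r on log2 CPM, as a description. They were Clcn2 (0.986), Hspb8 (0.960) and Eppk1 (0.956) for Cdkn1a, Tgoln1 (0.983), Stambpl1 (0.976) and Itpripl2 (0.9755) for Mdm2, and Gxylt2 (0.989), U2af2 (0.976) and Nuak1 (0.9751) for Ccnd1. The points share library, depth and group, and these r are the highest among all tested protein-coding genes, so they are high by choice.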

How the data were processed

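RNA-Seq counts of 3 control, 3 lefamulin and 3 tiamulin libraries were analysed, grouped by the sample labels. The authors deposited read counts per gene without normalization, and FPKM values that equalled the counts divided by gene length and by a library total of 0.993 to 1.01 times the summed counts. The submitters' processing notes name CASAVA 1.8, fastp, HISAT2 2.0.5, featureCounts 1.5.0-p3, DESeq2 1.20.0 and the build mm10, but the deposited start and end matched GRCm38 for 1435 of 52036 nuclear genes (2.76%). Positions of genes are therefore given as deposited, with the build not settled, and promoter sequences are those of RefSeq on GRCm38.p6. Strand use in counting is not given in the sources used here.

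Counts were tested with edgeR 4.0.16 in R 4.3.3 (TMM, filterByExpr, robust quasi-likelihood fit of all 9 libraries on group alone), with Benjamini-Hochberg adjustment over 14510 genes, a threshold of 0.05 and, for a DEG, an absolute log2 fold change above 1. The TMM factors lay between 0.994 and 1.01. The procedure was tested on simulated counts. The alternatives were DESeq2 1.42.0, its size factors in edgeR, testing genes without a filter, a minimum of 10 counts per library, fits of just the 2 groups concerned, a replicate block, offsets for GC content and gene length (lowess, span 0.3, with GC known for 98.2% of the tested genes) and leaving out each library. The 10 genes and the gene lists were chosen with earlier results of these data known. All 10 genes are named. Of the lists, the called genes are counted, the up to 4 with the largest changes are named, and counts of 5 or fewer are named in full. Genes of the p53 list and the G2/M list beyond these were named after their values were seen, to give each called gene. The 3 genes most correlated with Cdkn1a, Mdm2 and Ccnd1 used log2 CPM with a prior count of 2. A marker gene fixed for the cell type check is not reported here.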

Additional observations from a re-analysis of the deposited data

How the results depend on the processing

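Depth was similar in all libraries, and the limits are the 3 libraries per group, the GC trend of tiamulin 2 and the unknown origin of the replicates. Of the log2 fold changes of the 10 genes under the alternatives, 421 of 480 kept their direction and their side of the threshold, 27 lost a call, 23 gained one and 9 changed sign. The changes of sign were all of values that had not passed. Under lefamulin they were Bbc3 (-0.028 without control 2, in a range up to 0.19 without control 1) and Btg2. The Btg2 values were -0.0012 with the GC and length offsets, and -0.025 without control 2 to 0.068 without control 3. Between the drugs they were Cdkn1a (-0.021 with the offsets, -0.038 without lefamulin 1, and from -0.041 without tiamulin 2 to 0.055 without tiamulin 1) and Ccnd1. The Ccnd1 values were 0.00056 without a filter, 0.0012 without tiamulin 3, and from -0.019 without lefamulin 2 to 0.0089 without lefamulin 3. The cause was not tested.

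The numbers of genes past the threshold moved by more than 1.5 times as follows. Under lefamulin, 1900 genes were called, 3428 with the offsets and 3510 with the 2 groups alone, and 219 DEGs became 131 with at least 10 counts in every library. Under tiamulin, 2383 genes became 3884 with the offsets, and 259 DEGs became 164 with at least 10 counts. Between the drugs, 711 genes became 1076 with DESeq2, 1271 without a filter, 263 with the replicate block, 1899 with the offsets and 280 with the 2 groups alone, and 33 DEGs became 21, 70, 18, 55 and 18 in the same order. Of the 10 genes, the replicate block left 1 called higher (Trp53inp1) and 1 lower (Ccnd1) under lefamulin, in place of 2 and 2. With the offsets 2 were called lower under tiamulin in place of 1. Between the drugs, in place of 0 and 0, DESeq2 called 2 higher, the fit without a filter 2 higher and 1 lower, and the offsets 5 higher and 2 lower. In the lists, the fits of just the 2 groups moved the lefamulin calls from 0 to 5 (G2 and mitosis), 1 to 5 (G1 genes) and 1 to 2 (CDK inhibitors), with 24.8% of all genes called. The tiamulin calls against control moved from 5 to 3 (G1 genes) and 2 to 1 (CDK inhibitors), with 12.0% of all genes called.

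Leaving out 1 library at a time gave 993 to 3708 genes and 153 to 295 DEGs under lefamulin, with 0 to 4 of the 10 genes higher and 1 to 2 lower. It gave 1462 to 3433 genes and 206 to 280 DEGs under tiamulin, with 2 to 4 higher and 1 to 2 lower, and 204 to 1309 genes and 14 to 46 DEGs between the drugs, with 0 to 3 higher and 0 lower.

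The labels number the libraries alike in each group. The correlation of deviations from the group mean between same-numbered libraries was -0.47 to 0.02 over 9 pairs, with 0 above 0.1. These deviations carry the GC trends described above, and control 1 with tiamulin 2 gave 0.47. They cannot show whether equal numbers mark a shared origin. Under the replicate block the adjusted p of edgeR was 0.0663 for Trp53 and 0.0947 for Mdm2 under lefamulin and 0.0748 for Btg2 under tiamulin, and the other 6 calls of the 10 genes stayed. In the lists, the block moved the calls under lefamulin from 1 to 0 (G1 genes) and from 2 to 0 (p53 family), and under tiamulin from 5 to 3 (G1 genes), 2 to 1 (CDK inhibitors), 3 to 2 (BCL-2 family) and 8 to 6 (G2 and mitosis). Between the drugs it moved them from 5 to 2 (G2 and mitosis), 3 to 2 (G1 genes), 2 to 0 (BCL-2 family), 2 to 1 (p53 targets) and 1 to 0 (p53 family). It left 8.99%, 12.5% and 1.81% of all genes called in the same order.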
